A study of Solanum lycopersicum with 18 samples.

Results

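The rin mutant of tomato bears fruit that stays green and firm. It carries a mutation of RIN, a MADS-box transcription factor that switches on ripening genes. The mutation is a deletion that fuses RIN to its MADS-box neighbour MC. RIN acts mainly from the onset of ripening, so most transcripts that depend on it part between the genotypes at breaker and later. The transcripts described here are those whose mean signal already differed in green fruit and kept the sign of that difference through the red-ripe age. In wild type, with dim signals raised to a floor, their mean also ended within 1 log2 unit of the level at which it began.

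Members were taken by a rule on measured signals. Signals under 32 were raised to 32, log2 was taken, and the 3 arrays of each group were averaged. A probe set, the group of short probes that reads 1 transcript, was kept when rin minus wild type was 0.8 or more (1.74-fold) at all 3 ages, or -0.8 or less at all 3, and when wild type at 45 DAP minus 35 DAP lay between -1 and 1. Of 10101 probe sets, 28 met the rule (0.277%), 15 higher and 13 lower in rin. Before the limit on wild type 103 probe sets had met it, and 75 were then left out, among them RIN, the ripening genes E8 and EXP1, and the vacuolar invertase AI. All 28 also passed the filter on dim probe sets used for the tests, a signal over the 30th percentile of the array on 3 or more arrays.

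Total RNA came from the pericarp, the outer flesh, of fruit of the variety Pusa Ruby and was hybridised to an Affymetrix tomato array. The 6 groups were wild type and rin mutant fruit, each at 35, 40 and 45 days after planting (DAP, the labels' own term), with 3 arrays a group and no treatment. By label these ages are immature green, breaker and red-ripe, and the rin groups carry the same stage names although they name an age rather than a colour. The labels number the plants as biological replicates without stating whether each array had a plant of its own, so the p-values cover only the spread among these arrays, and some of that may be technical. The titles also carry plant codes that recur across ages, such as mutant8 and mutant9 at all 3 ages of rin and control7 at all 3 ages of wild type, so age groups may share plants. Whether they do is not stated, and the plant numbers in the same titles do not always follow the codes. The sources used here do not say how the rin allele was brought into Pusa Ruby. In bulk pericarp, fewer cells of a type and less RNA per cell cannot be told apart.

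RIN itself read 5.11 to 9.27 on the 9 rin arrays and 62.5 to 6929 on the 9 wild-type arrays, so no array went against its genotype label. Array medians lay between 76.6 and 87.2, and 36.6% to 39.4% of probe sets on an array were under 32. Replicate 2 of rin at 35 DAP stood apart in RNA quality, with a log2 ratio of 3′ over 5′ signal, averaged over the control transcripts, of 1.84, where the other 17 arrays had 0.36 to 1.09. Without that array 33 probe sets met the rule, 26 of them members. Without replicate 2 of wild type at 35 DAP the count was 46, of which 17 were members, the furthest from 28 that leaving out any 1 array gave. The summed signal of 6 ripening markers was 4731 to 9613 in wild type at 35 DAP and 69903 to 77846 at 45 DAP, and 1289 to 3842 and 9309 to 20718 in rin. Of the other cell types listed, the 1 measured seed marker, MAN2, stayed under 32 on every array. The summed signal of the 3 epidermis markers overlapped between genotypes at 35 DAP (7178 to 22388 in rin, 8405 to 18788 in wild type). The sums also overlapped at 40 DAP (10066 to 14031 and 10982 to 17846). They did not overlap at 45 DAP (13796 to 19494 and 911 to 2878). Taken singly, LE16 did not overlap at 40 DAP (380 to 1259 in rin, 1457 to 6131 in wild type), while ltpg1 and TSW12 did. The part of these markers in the members' differences was not tested. Of the 2 green plastid markers, CAB4 overlapped at every age, and CAB6A overlapped at 35 and 40 DAP but not at 45 DAP, where it read 77.1 to 1357 in rin and 4.60 to 10.1 in wild type. Its part was not tested either, and no xylem marker was measured.

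**Figure D1:**
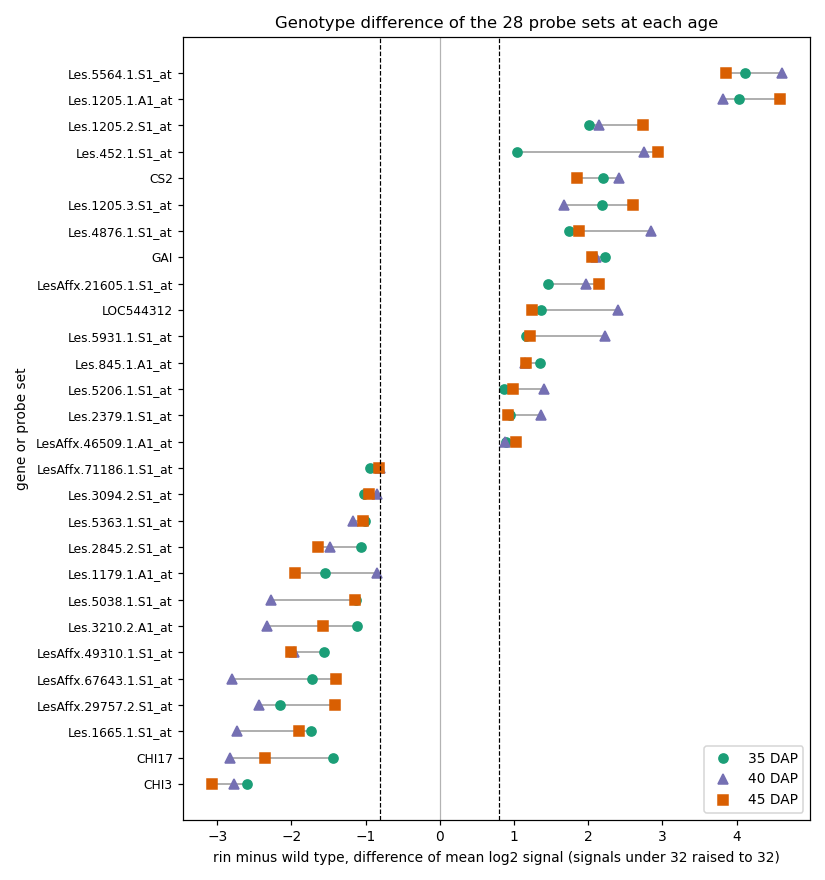
Difference of the mean log2 signal, rin minus wild type, for the 28 probe sets at 35 DAP (circles), 40 DAP (triangles) and 45 DAP (squares), with signals under 32 raised to 32 and the rule's limits of 0.8 and -0.8 dashed. The means over the ages run from 4.19 to -2.81, and the span between a probe set's 3 ages runs from 0.14 to 1.90.

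The genotype differences were of 1 sign at every age but not of 1 size. Those differences chose the members, so they are given as a description with no test. The median difference of the 15 higher members was 1.46 at 35 DAP, 2.14 at 40 DAP and 1.88 at 45 DAP on the floored log2 scale. Of the 13 lower members it was -1.44, -2.27 and -1.58. The span between the largest and the smallest of a member's 3 differences was under 0.5 for 9 members, under 1 for 18, and 1 or more for 10. The difference was furthest from 0 at 40 DAP for 14 members, 7 in each direction. GAI had one of the most even differences, at 2.22, 2.11 and 2.06, and Les.452.1.S1_at the least even, at 1.04, 2.75 and 2.94. The word steady therefore describes the sign and not the size. For 10 of the 15 higher and 9 of the 13 lower members, some array of the dimmer genotype was under 32. The floor can make the span of such a member smaller than that of its deposited signals.

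Close to the limit, Les.5206.1.S1_at (0.86, 1.41 and 0.98 at 35, 40 and 45 DAP) and LesAffx.46509.1.A1_at (0.89, 0.88 and 1.03) were the last higher members inside it. LOC778303 (1.54, 0.73 and 0.81) and Les.1555.1.A1_at (1.02, 1.21 and 0.77) fell just outside. Among lower members, LesAffx.71186.1.S1_at (-0.94, -0.80 and -0.82) and Les.3094.2.S1_at (-1.02, -0.84 and -0.95) were the last inside, and Les.4923.1.S1_at (-0.88, -0.78 and -1.30) and LesAffx.51721.1.S1_at (-0.78, -1.57 and -1.06) the first outside. The limit on wild type left out THM6 by little (wild type 45 minus 35 DAP -1.03) and AI (1.12), whose rin minus wild type difference was -2.63, -1.57 and -2.34.

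The arrays of the genotypes did not overlap at 35 DAP for 20 of the 28 members, 12 higher and 8 lower, where 11.0% of all probe sets did not overlap. At 40 DAP this held for 21 members (44.8% of all probe sets) and at 45 DAP for 22 (53.6%). It held at all 3 ages for 15 members (1.83%), 10 higher and 5 lower. For 8 members the 9 rin arrays and the 9 wild-type arrays did not overlap at all (0.287%): CS2, CHI3, Les.5564.1.S1_at, Les.1205.1.A1_at, Les.452.1.S1_at, LesAffx.21605.1.S1_at, Les.5206.1.S1_at and LesAffx.49310.1.S1_at. The rule chose on the same arrays, so nothing follows from these shares. At the other end, 3 members overlapped at every age, LOC544312, Les.1205.2.S1_at and Les.1205.3.S1_at.

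Of the 28 members 5 carry a gene symbol, and 23 have none in the platform's annotation, which names 909 of 10101. The named ones are CS2 (probe set Les.3660.1.S1_at), GAI (Les.4311.1.S1_at) and LOC544312 (Les.3757.1.S1_at), higher in rin, and the chitinase genes CHI3 (Les.122.1.S1_at) and CHI17 (Les.3779.1.S1_at), lower in rin. By RefSeq's gene table for SLM_r2.1 none of the 5 lies on the chromosome of RIN, while CHI3 and CHI17 are direct neighbours with no gene between them. The other 23 could not be placed. All 28 probe sets end in _at alone, without the letters that mark probe sets shared between transcripts on this type of array, as do 9824 of all 10101.

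CS2 encodes chorismate synthase, the last enzyme of the shikimate pathway, which supplies the aromatic amino acids and the phenolic compounds made from them. Its signal in rin was 164, 157 and 126 on the 3 arrays at 35 DAP, 256, 127 and 154 at 40 DAP, and 235, 82.2 and 78.9 at 45 DAP. The wild-type arrays read 14.0, 12.5 and 14.2, then 13.1, 12.7 and 14.4, then 12.3, 17.0 and 16.7. Every wild-type array was under 32 and every rin array well over it. The fold is therefore a lower bound against 32, at least 4.62-fold at 35 DAP, 5.36-fold at 40 DAP and 3.60-fold at 45 DAP. Within rin, CS2 did not pass the test of a change between 35 and 45 DAP (log2 change -0.36 ± 0.37 (SE), adjusted p = 0.546). Replicates 2 and 3 at 45 DAP lay below every other rin array, and replicate 1 of that age was the second highest.

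The other chorismate synthase gene on the array, CS1, was set beside it after the values had been seen. CS1 was bright in both genotypes, and its rin minus wild type difference was 0.13 at 35 DAP, -1.03 at 40 DAP and -0.91 at 45 DAP. Its arrays ran from 576 to 714 in rin and from 543 to 619 in wild type at 35 DAP, and from 756 to 792 and 1296 to 1582 at 45 DAP. The genes of this enzyme thus lay on opposite sides of wild type at 40 and 45 DAP. The difference was not tested.

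GAI encodes the tomato DELLA protein, also known as PROCERA, a repressor of gibberellin responses that is removed when gibberellin is perceived. In rin it read 423, 201 and 169.9 at 35 DAP, 141, 366 and 245 at 40 DAP, and 183, 96.9 and 134 at 45 DAP. Wild type had 74.4, 47.6 and 40.2, then 104, 29.5 and 47.3, then 24.4, 28.8 and 27.9. The genotypes did not overlap at any age, although the lowest rin array of all (96.9, at 45 DAP) lay below the highest wild-type array (104, at 40 DAP). GAI was 4.67-fold higher in rin at 35 DAP, at least 4.31-fold at 40 DAP, where 1 wild-type array was under 32, and at least 4.16-fold at 45 DAP, where all 3 were. Its log2 change from 35 to 45 DAP in rin was -0.87 ± 0.47 (SE) and did not pass the test (adjusted p = 0.236). Nor did its change of -0.96 ± 0.47 from 40 to 45 DAP in wild type (adjusted p = 0.238).

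Of 6 measured genes of gibberellin synthesis and response, a list put together after GAI was seen among the members, only GAI is a member, and 4 were under 32 on every array. The remaining one, 20ox-3, a gibberellin 20-oxidase that makes the precursors of active gibberellin, differed the other way. It read 7.60 to 157 in rin and 409.9 to 918 in wild type at 35 DAP, and 33.8 to 59.5 against 142 to 1331 at 40 DAP. At 45 DAP its arrays overlapped, at 317 to 474 and 441 to 1243. Its differences were -3.58, -3.54 and -0.74, so it missed the rule by its last age.

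CHI3 and CHI17 encode acidic extracellular chitinases, enzymes that cut the chitin of fungal walls. CHI3 read 6.35, 64.5 and 35.7 in rin at 35 DAP, 36.6, 71.4 and 30.9 at 40 DAP, and 11.8, 17.9 and 19.2 at 45 DAP. The wild-type values were 118, 1089 and 128, then 161, 802 and 207, then 125, 136 and 1139. All 9 wild-type arrays lay above all 9 rin arrays. In each wild-type group 2 arrays sat between 118 and 207 and 1 array between 802 and 1139, replicate 2 at 35 and 40 DAP and replicate 3 at 45 DAP. The CHI3 signal of rin was at least 6.06-fold lower at 35 DAP, 6.84-fold at 40 DAP and 8.40-fold at 45 DAP, with 1, 1 and 3 rin arrays under 32. Without replicate 2 of wild type at 35 DAP neither CHI3 nor CHI17 met the rule.

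CHI17 read 12.3, 8.21 and 68.1 in rin at 35 DAP, 52.0, 7.14 and 4.07 at 40 DAP, and 10.4, 5.79 and 14.6 at 45 DAP. Wild type had 15.4, 302 and 143, then 829, 199 and 115, then 153, 198 and 145. At 35 DAP the genotypes overlapped, because replicate 1 of wild type was as dim as rin, and at 40 and 45 DAP they did not. The bounds were at least 2.71-fold, 7.09-fold and 5.12-fold lower in rin, with 2, 2 and 3 rin arrays under 32. Neither chitinase passed a test of change with age in either genotype. For CHI17 the log2 change from 35 to 40 DAP in wild type was 1.61 ± 1.13 (SE, adjusted p = 0.30). The array that was brightest for CHI3 was not the brightest for CHI17 at 40 or 45 DAP in wild type. Whether the probes tell these neighbouring genes apart was not tested.

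Among 9 measured defence genes these 2 were the only members. The basic chitinase CHI9 lay on both sides, with differences of -0.66 at 35 DAP, -2.42 at 40 DAP and 1.19 at 45 DAP. CHI14, another basic chitinase, was under 32 on every rin array and reached 142 on 1 wild-type array, with differences of 0, -0.72 and -0.14. PR1b1, a pathogenesis-related protein, had differences of -2.72, -1.89 and -0.58 and missed the rule by its last age and by its wild-type change of -2.14 between 35 and 45 DAP. None of the 5 measured ripening regulators, 11 ethylene synthesis genes, 18 genes of ethylene perception and response, 10 carotenoid genes or 25 cell wall genes was a member. Of all probe sets only 0.277% were, and the limit on wild type leaves out genes that change much with ripening, so nothing follows from this. RIN, TDR4, E8, EXP1 and Cel1 of these lists met the genotype part of the rule and were left out by that limit.

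LOC544312 met the rule, with group medians too, although its arrays overlapped between genotypes at every age. In rin it read 5.68, 2118 and 323 at 35 DAP, 1706, 10.7 and 4141 at 40 DAP, and 664, 179 and 246 at 45 DAP. The wild-type arrays read 69.8, 567 and 27.9, then 342, 33.2 and 135, then 80.5, 453 and 60.2. The rin arrays scattered over both sides of wild type at 35 and 40 DAP, with the dimmest and the brightest arrays of the gene in the same genotype. Its pooled replicate SD, 2.38 on the floored log2 scale, was the highest of the 28 and close to its difference of 2.40 at 40 DAP.

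**Figure D2:**
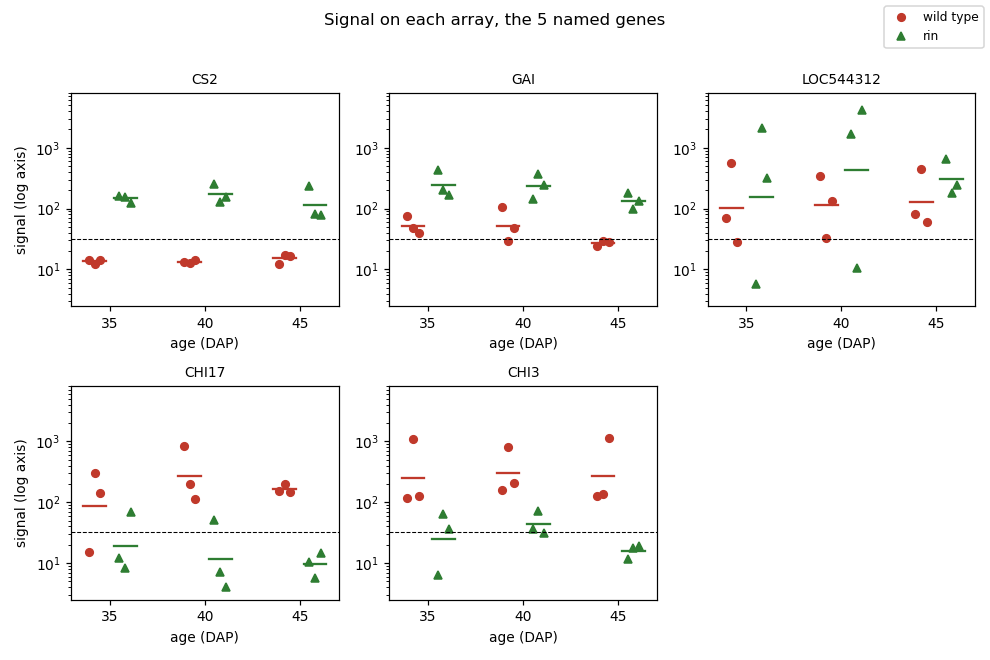
Signal on each of the 18 arrays (log axis, arbitrary units) against age for the 5 named genes, wild type as circles and rin as triangles, with bars at the geometric mean of 3 arrays and a dashed line at 32. CS2 and GAI do not overlap between genotypes at any age, nor does CHI3, whereas LOC544312 overlaps at all 3.

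Among members without a gene symbol, the 5 with the largest and the 4 with the most negative mean difference whose arrays did not overlap at any age are described by probe set name. Les.5564.1.S1_at had the largest mean difference of the 28, at least 17.3-fold at 35 DAP, 24.4-fold at 40 DAP and 14.4-fold at 45 DAP. In rin it read 704, 696 and 634, then 885, 606 and 887, then 682, 346 and 419. In wild type it read 58.9, 6.09 and 6.10, then 6.08, 6.68 and 6.48, then 6.17, 9.20 and 8.29. Only replicate 1 of wild type at 35 DAP rose above 32, and without it Les.5564.1.S1_at still met the rule, as it did without any other array.

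LesAffx.21605.1.S1_at was likewise under 32 on all 9 wild-type arrays, at 4.16 to 4.77. In rin it read 285, 33.4 and 71.4 at 35 DAP, 114, 89.5 and 192 at 40 DAP, and 247, 117 and 99.2 at 45 DAP. The bounds were 2.75-fold, 3.91-fold and 4.43-fold. Together with CS2 it is one of the 2 members whose dimmer genotype stayed under 32 on every array.

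Les.452.1.S1_at and Les.5931.1.S1_at were measured above 32 in both genotypes on every array. Les.452.1.S1_at read 339, 319 and 452 in rin at 35 DAP, 805, 479 and 619.6 at 40 DAP, and 504, 876 and 867 at 45 DAP. Wild type had 172, 155 and 211, then 97.0, 55.8 and 145, then 118, 77.8 and 93.1. Its fold went from 2.05 at 35 DAP to 6.72 and 7.65 at 40 and 45 DAP, and at these ages every wild-type array lay below, and every rin array above, those of the same genotype at 35 DAP. Les.5931.1.S1_at ran from 278 to 990.3 in rin and from 80.2 to 391 in wild type. It was 2.24-fold, 4.69-fold and 2.32-fold higher in rin.

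LesAffx.49310.1.S1_at was the lower member with the tightest replicates. In rin it read 44.0, 28.3 and 38.2 at 35 DAP, 26.7, 40.9 and 40.9 at 40 DAP, and 28.8, 38.5 and 26.8 at 45 DAP. The wild-type values were 129.5, 165 and 64.4, then 139, 148 and 155, then 125, 148 and 138. Its brightest rin array (44.0) lay below its dimmest wild-type array (64.4), and it was at least 2.95-fold, 3.91-fold and 4.01-fold lower in rin. LesAffx.29757.2.S1_at ran from 28.9 to 131 in rin and from 119 to 873 in wild type, and its rin signal was at least 4.43-fold lower at 35 DAP, and 5.40-fold and 2.65-fold lower at 40 and 45 DAP, where no array was under 32. Les.2845.2.S1_at ran from 29.3 to 84.3 and from 75.8 to 246, and LesAffx.71186.1.S1_at from 56.4 to 287 and from 147 to 346. The 3 differences of LesAffx.71186.1.S1_at lay closest to each other of all 28, but so near the limit that it met the rule in only 9 of the 18 omissions of 1 array, and not with group medians, quantile normalization, median centring or log2 of the signal plus 32.

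**Figure D3:**
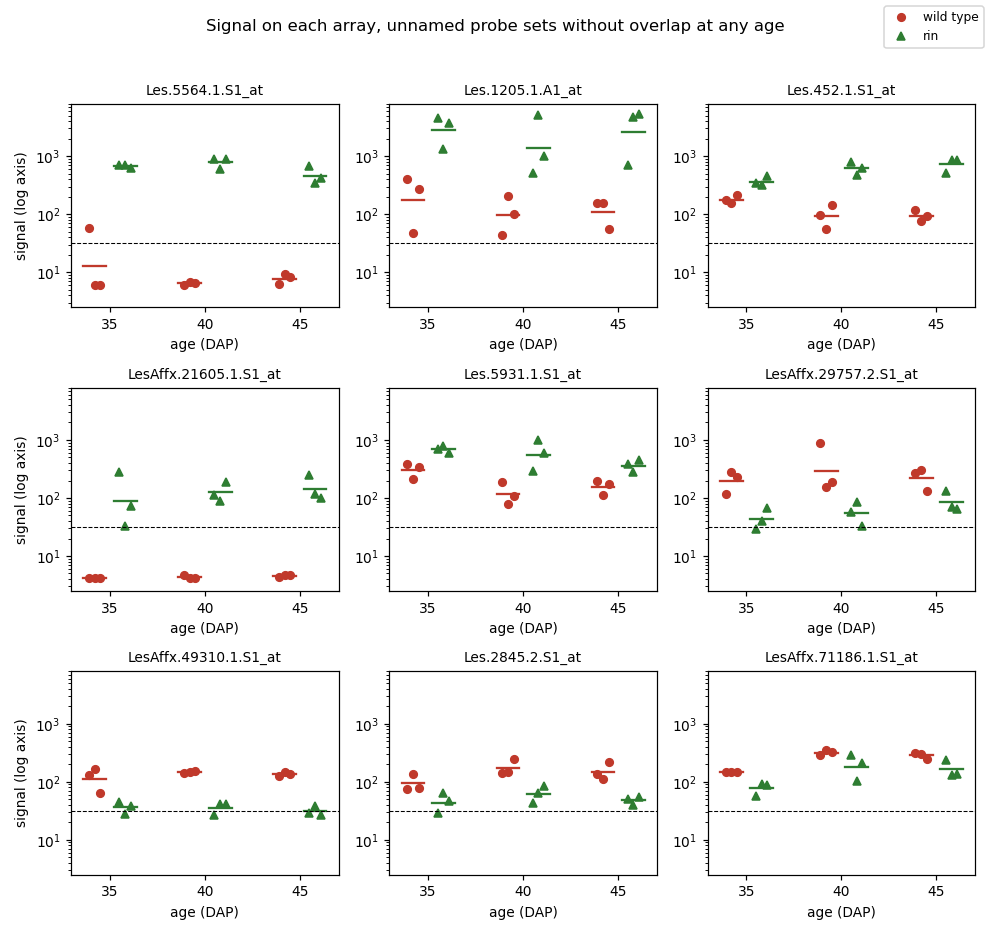
Signal on each array (log axis, arbitrary units) against age for the 9 unnamed probe sets chosen by the naming rule, wild type as circles and rin as triangles, with bars at the geometric mean of 3 arrays and a dashed line at 32. Genotypes do not overlap at any age in these panels, and LesAffx.21605.1.S1_at stays between 4.16 and 4.77 in wild type.

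The names of 3 members share the cluster number Les.1205, which in the array's naming groups related sequences, so the 28 probe sets stand for 26 cluster numbers. Les.1205.1.A1_at had the brightest rin signals, at 4473, 1349 and 3758 at 35 DAP, 511, 5224 and 987 at 40 DAP, and 714, 4804 and 5356 at 45 DAP. In wild type it read 401, 47.0 and 271, then 44.0, 209.9 and 103, then 153, 155 and 55.4. It was 16.4-fold higher in rin at 35 DAP, 14.1-fold at 40 DAP and 24.1-fold at 45 DAP, and its dimmest rin array (511) lay above its brightest wild-type array (401). Les.1205.2.S1_at ran from 38.2 to 1843 in rin and from 11.0 to 199 in wild type, and Les.1205.3.S1_at from 276 to 4134 and from 46.8 to 533. Both overlapped between genotypes at every age. In all 3 rin groups the same array was dimmest on all 3 probe sets, replicate 2 at 35 DAP and replicate 1 at 40 and 45 DAP. The first of these is the array with the high 3′ to 5′ ratio, and replicate 2 of wild type at 35 DAP and replicate 3 at 45 DAP were the dimmest of their groups on all 3 as well. What sets these arrays apart was not tested. Without replicate 2 of wild type at 35 DAP Les.1205.1.A1_at no longer met the rule, since wild type then changed by more than 1 between 35 and 45 DAP.

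**Figure D4:**
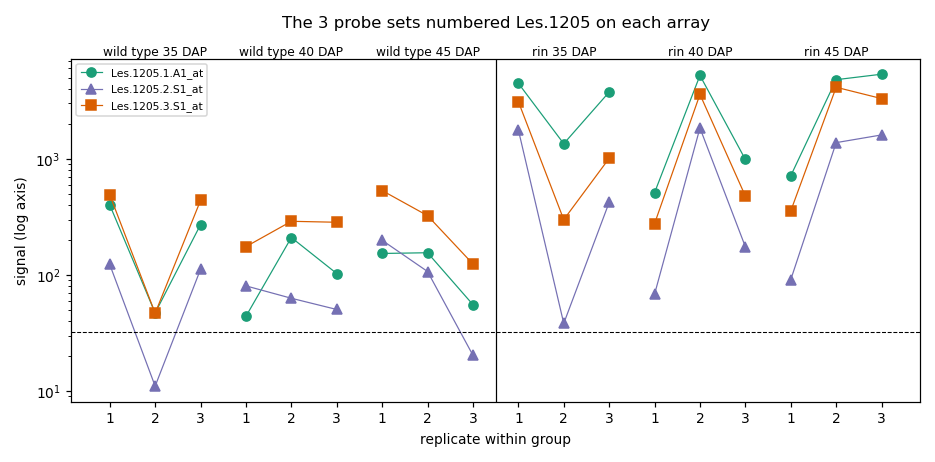
Signal (log axis, arbitrary units) of the 3 probe sets numbered Les.1205 on each array, by group and replicate, with lines joining the arrays of a group, which have no order, and a dashed line at 32. The dimmest array is the same on all 3 probe sets in every rin group, and Les.1205.1.A1_at runs from 511 to 5356 on rin arrays and from 44.0 to 401 on wild-type arrays.

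Other members shared a cluster number with probe sets that are not members. Les.2845.1.S1_at differed by -0.15, -1.52 and -0.77 and Les.2845.3.S1_at by -0.55, -1.21 and -1.48, against -1.06, -1.48 and -1.64 for the member Les.2845.2.S1_at. Les.3210.1.S1_at differed by -1.50, -1.66 and -0.52 and Les.3210.2.A1_a_at by -1.22, -1.43 and -0.33, against -1.12, -2.33 and -1.58 for the member Les.3210.2.A1_at. These 4 had the member's sign at every age and fell short of the limit at 1 or 2 ages. The relatives of Les.3094.2.S1_at, LesAffx.29757.2.S1_at and LesAffx.46509.1.A1_at were under 32 on every array, so they give no comparison.

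Of the other 12 members without a symbol, 5 were higher and 7 lower in rin. Among the higher ones, Les.4876.1.S1_at had differences of 1.74, 2.85 and 1.88, and ran from 81.7 to 1573 in rin and from 5.49 to 445 in wild type. Les.845.1.A1_at was more even on the floored scale, at 1.35, 1.14 and 1.16, with 2 wild-type arrays under 32 at both 40 and 45 DAP. It was not a member with a floor of 64 or with log2 of the signal plus 32. Its arrays, 48.6 to 176 in rin and 26.2 to 60.0 in wild type, did not overlap at any age. Les.2379.1.S1_at (0.94, 1.37 and 0.92) and Les.5206.1.S1_at did not overlap at any age either, and LesAffx.46509.1.A1_at overlapped at 40 DAP. The mean deposited signal of Les.2379.1.S1_at in wild type fell from 40.3 at 35 DAP to 8.98 at 45 DAP. It met the limit on wild type with signals under 32 raised to 32 (-0.36), and was not a member with a floor of 16.

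Among the lower ones, Les.1665.1.S1_at had differences of -1.74, -2.73 and -1.90 and met the rule without any 1 array. LesAffx.67643.1.S1_at (-1.72, -2.80 and -1.40), Les.3210.2.A1_at (-1.12, -2.33 and -1.58) and Les.5038.1.S1_at (-1.13, -2.27 and -1.15) shared the pattern of a difference furthest from 0 at 40 DAP. At 35 DAP the arrays of Les.3210.2.A1_at overlapped, at 67.4, 1646 and 52.1 in wild type and 19.5, 210 and 84.2 in rin. It failed the rule when any 1 of those wild-type arrays was left out, and met it in 13 of the 18 omissions of 1 array. Les.5038.1.S1_at was among the most scattered members, from 12.5 to 2942 in rin and from 166 to 2106 in wild type, with overlap at 35 and 45 DAP. Les.1179.1.A1_at went the other way, at -1.54, -0.85 and -1.95, with its smallest difference at 40 DAP. Les.5363.1.S1_at (-1.01, -1.17 and -1.03) and Les.3094.2.S1_at had nearly even differences of means. The first ran from 335 to 558 in rin and from 391 to 1790.4 in wild type. Both overlapped between genotypes at 35 DAP, where replicate 2 of wild type was the brightest array, at 1790.4 and 1073. Without that array neither met the rule, and Les.3094.2.S1_at met it in only 12 of the 18 omissions of 1 array.

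Replicates of the members scattered more than those of most probe sets. The replicate SD of the log2 signal as deposited, pooled over the 6 groups, had a median of 0.71 over the members and 0.41 over the 7720 probe sets tested, and 27 of 28 members lay above the latter. On the floored scale the medians were 0.64 and 0.34. This spread was not used by the rule as such, and no test is given. Whether a rule on means of 3 arrays admits scattered probe sets more easily was not tested. The comparison was not matched for brightness. For 13 members the largest replicate SD of a group exceeded the smallest of the 3 genotype differences. Most were of middling brightness. The median signal over the 9 arrays of the brighter genotype was between 100 and 1000 for 22 members, over 1000 for 3 and under 100 for 3.

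Change with age within a genotype was tested across all 7720 probe sets with limma on the log2 signal as deposited. These contrasts are not the ones the rule used, but they share its arrays, and the limit on wild type between 35 and 45 DAP narrows them. Members at an unadjusted p under 0.05 are also counted below. The share of all probe sets at that unadjusted limit was not taken, so nothing follows from those counts. From 35 to 40 DAP in wild type, 5 of 28 members passed (17.9%), where 30.9% of all probe sets did (14.4% higher and 16.5% lower at 40 DAP), and 7 had an unadjusted p under 0.05. LesAffx.71186.1.S1_at rose, from 148 ± 1.16 to 319.9 ± 30.2 (SD, n = 3; log2 change 1.11 ± 0.33 (SE), adjusted p = 0.0208). The other 4, all higher in rin, fell. Les.5931.1.S1_at went from 317 ± 90.5 to 127 ± 57.2 (SD, n = 3; log2 change -1.37, adjusted p = 0.0205) and Les.452.1.S1_at from 179 ± 28.5 to 99.4 ± 44.8 (-0.95, adjusted p = 0.0420). Les.5206.1.S1_at (-1.51, adjusted p = 0.0300) and Les.2379.1.S1_at (-1.36, adjusted p = 0.0244) fell to arrays that were all under 32 at 40 DAP. On the scale floored at 32 only Les.5931.1.S1_at and LesAffx.71186.1.S1_at passed. Without replicate 1 of wild type at 35 DAP none of the 28 passed, without its replicate 3 only 1 did, and without any 1 replicate of wild type at 40 DAP 2 did.

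From 40 to 45 DAP in wild type none of the 28 members passed limma's test, where 8.30% of all probe sets did (3.56% higher and 4.74% lower at 45 DAP). The smallest adjusted p was 0.0570, and 1 member had an unadjusted p under 0.05. Without replicate 1 or replicate 3 of rin at 40 DAP, which change only the shared estimate of the spread, 1 member passed.

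From 35 to 45 DAP in rin, 1 of 28 members passed, where 11.3% of all probe sets did (6.0% higher and 5.30% lower at 45 DAP), and 3 had an unadjusted p under 0.05. It was again LesAffx.71186.1.S1_at, which rose from 79.1 ± 19.7 to 170.1 ± 61.0 (SD, n = 3; log2 change 1.08 ± 0.33 (SE), adjusted p = 0.0492). In rin this probe set had already risen by 40 DAP, by 1.24 from 35 DAP, though limma did not call that change (adjusted p = 0.292). The rise in wild type over the same ages was 1.11. From 40 to 45 DAP it changed by -0.16 in rin and -0.15 in wild type. It stayed lower in rin at each age. Its call in rin was lost under 27 of 30 other settings, with an adjusted p of up to 0.173. Without replicate 1 of rin at 35 DAP 2 members passed. The median size of the log2 change over the 28 members, taken without sign, was 0.61, and 0.46 over all probe sets tested. In the same order it was 0.33 and 0.34 from 35 to 40 DAP in rin, and 0.45 and 0.28 from 40 to 45 DAP. In wild type it was 0.72 and 0.58 from 35 to 40 DAP, and 0.27 and 0.36 from 40 to 45 DAP. These sizes were not matched for replicate spread, which was larger among the members. From 35 to 40 DAP in rin limma called 2 of all 7720 probe sets (0.0259%) and no member, with 3 members at an unadjusted p under 0.05, and 1 member passed without replicate 1 at 35 DAP and 1 without replicate 2 at 40 DAP. With the shared plant codes of rin at 35 and 40 DAP as a block over those 6 arrays, 0 members passed and 1 had an unadjusted p under 0.05. From 40 to 45 DAP limma called 28 (0.363%, with 0.168% higher and 0.194% lower) and no member, with 0 at an unadjusted p under 0.05.

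**Figure D5:**
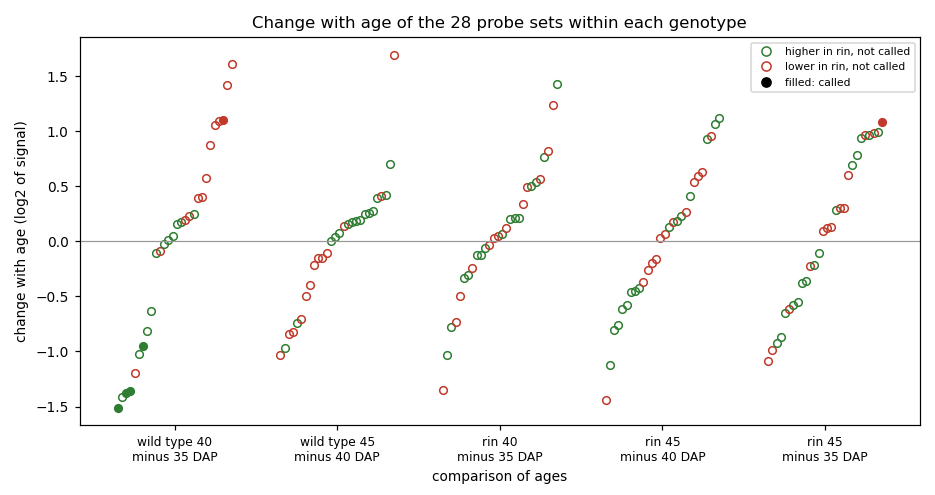
Change with age within each genotype (log2 of the signal as deposited) for the 28 probe sets in 5 comparisons of ages, sorted by size within each, with green for members higher in rin, red for members lower in rin, and filled points for an adjusted p under 0.05. Filled points number 5 from 35 to 40 DAP in wild type and 1 from 35 to 45 DAP in rin.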

How the data were processed

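The deposited values are linear intensities, 1 for each probe set on each array, made with GCOS per the submitters' processing notes, with no version given. Their array medians were already alike. Groups were taken from the labels' source names, since the general growth notes speak of seedlings. The 108 control probe sets were left out. The members were found with pandas 2.3.3 as the report states, and folds come from means of log2 signals raised to 32, "at least" marking any array of the dimmer group under 32. Changes with age were fitted with limma 3.58.1 in R 4.3.3 (lmFit, eBayes with trend) on log2 of the deposited intensity, with a mean per group over all 18 arrays. Probe sets had to exceed their array's 30th percentile on at least 3 arrays, which left 7720. P-values are two-sided and Benjamini-Hochberg adjusted over all of them, and calls are at an adjusted p under 0.05. Errors are SD over 3 arrays or the model's SE. The number of arrays limits the precision. The fit was tested on simulated data.

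Gene names come from the platform annotation of 2007, of whose 909 named probe sets 885 matched the RefSeq table of SLM_r2.1. Members and lists were chosen with earlier results of these data known. The genes named are all members with a symbol, then up to 5 unnamed members in each direction with the largest mean difference and no overlap at any age, those nearest the limits, RIN, and the called age changes with the smallest adjusted p. Others are named as examples of a list or were chosen after their values were seen. The replicate numbers were not taken to pair the arrays: over the 5 comparisons of ages, 6 of 15 same-numbered pairs had deviations from the group means that correlated above 0.1 (r from -0.17 to 0.48, across probe sets). Of 10 pairs that shared a plant code, 2 did. At 35 and 40 DAP of rin, where number and code coincide, r was 0.0012, -0.17 and -0.050.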

Additional observations from a re-analysis of the deposited data

Results flagged for a closer look

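The mean signal of Les.452.1.S1_at moved in opposite directions with age in the genotypes, with no overlap between the arrays of the ages compared. From 35 to 40 DAP its mean signal changed by 265 in rin and by -80.1 in wild type. From 35 to 45 DAP the changes were 379 in rin and -83.1 in wild type. By limma the rise in rin was not called, either from 35 to 40 DAP (adjusted p = 0.345) or from 35 to 45 DAP (adjusted p = 0.0657). The fall in wild type from 35 to 40 DAP was called by limma (adjusted p = 0.0420), but that call was lost under 14 of 30 other settings. The difference between the genotypes was not tested, because it is made of the differences that chose the members. Groups of 3 arrays are too small for a check of single outlying arrays.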

How the results depend on the processing

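The number of members was 28, and stayed between 19 and 40 under 25 of 27 alternatives. With group medians it was 45, of which 21 were members by means, and leaving out 1 array at a time gave 25 to 46. Only 7 members met the rule under all 18 such omissions, and 5 under every alternative. No member's called age change reversed. The count of members called from 35 to 45 DAP in rin was 1, but 0 with the replicate block, the plant code block, no filter, the floor of 32, quantile normalization, median centring, only the genotype's 9 arrays, only the 6 compared, and, added after seeing the data, with replicates 2 and 3 of rin at 45 DAP averaged (their correlation was 0.991, across probe sets) or with replicate 1 of rin at 40 DAP and replicate 2 of rin at 35 DAP left out. Leaving out 1 array gave 0 to 2. From 35 to 40 DAP in wild type it was 5, with the replicate block also 5, but 2 with the floor of 32, with only the genotype's arrays and with only the 6 compared, and 0 to 6 without 1 array. From 40 to 45 DAP in wild type it was 0, but 1 with log2 of the signal plus 32 and 1 with those 2 rin arrays left out, and 0 to 1 without 1 array. From 35 to 40 DAP in rin it was 0, and 0 to 1 without 1 array, and from 40 to 45 DAP 0 throughout; the alternatives for these were added after seeing the data. The replicate block changed no other call. The causes were not tested. With 3 arrays a group and 36.6% to 39.4% of signals under 32, smaller changes of dim probe sets could not be seen.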
